A study of Mus musculus with 23 samples.

Results

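The genes examined encode secreted signals of the transforming growth factor beta (TGF-beta) superfamily and their soluble inhibitors: the bone morphogenetic proteins Bmp2 and Bmp4, the activin subunits Inhba and Inhbb, Tgfb1, Tgfb2 and Tgfb3, the divergent ligand Gdf15, and the activin-binding proteins Fst (follistatin) and Fstl3. They were chosen by name, with earlier results of these data known, and 9 of the 10 were measured among 18193 genes. No probe set carried the symbol Gdf15 in the probe annotation used, so Gdf15 is not analysed here. Each gene was represented by the probe set with the highest mean over all 23 arrays, and levels are log2(intensity + 16).

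The samples were 8 subclones of the mouse line LLC (Lewis lung carcinoma), which grows as a tumour in C57BL/6 hosts, numbered 2, 3, 6, 18, 19, 23, 24 and 28. All were isolated from the parental LLC culture by limiting dilution, maintained in DMEM with 10% FBS, and kept for 24 h in the serum-free FreeStyle medium before RNA extraction. Subclone 6 was measured on 2 arrays and the others on 3 each. They are labelled biological replicates without saying how the cultures were separated, so the p-values measure the spread between such samples. The labels name no parental sample and no control subclone. Each subclone is a single line, so a difference between subclones is a difference between single lines.

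Ligands of this superfamily bind pairs of type I and type II receptor kinases, which phosphorylate SMAD proteins. BMPs act mainly through SMAD1, SMAD5 and SMAD9, and activins and TGF-beta through SMAD2 and SMAD3. TGF-beta is secreted in a latent form held by binding proteins, whereas activin and BMP activity is limited outside the cell by secreted traps such as follistatin, gremlin and noggin. Activin made by tumours is known for its part in muscle wasting, and tumour TGF-beta for its effects on matrix and immune cells.

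The promoters of Inhbb, Inhba and Tgfb2 are shown because subclone 18 had the highest mean level of Inhbb and Tgfb2 and was, with subclone 19, among the lowest in Inhba. Each line gives the 250 bases before the annotated start site, 5′ to 3′ on the gene's strand, from RefSeq (GRCm38.p6): chr1:119422249-119422498 (minus strand) for Inhbb, chr13:16011601-16011850 (plus strand) for Inhba and chr1:186705990-186706239 (minus strand) for Tgfb2. Capitals mark CAGAC, a core element bound by SMAD3 and SMAD4, and TATAAA, the TATA box, searched on both strands; the motifs do not overlap one another in these windows.
Inhbb: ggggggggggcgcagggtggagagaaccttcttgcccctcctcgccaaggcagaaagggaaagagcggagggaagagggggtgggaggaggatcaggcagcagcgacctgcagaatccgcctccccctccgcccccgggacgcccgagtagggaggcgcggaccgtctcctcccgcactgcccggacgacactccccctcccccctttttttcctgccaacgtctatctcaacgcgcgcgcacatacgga
Inhba: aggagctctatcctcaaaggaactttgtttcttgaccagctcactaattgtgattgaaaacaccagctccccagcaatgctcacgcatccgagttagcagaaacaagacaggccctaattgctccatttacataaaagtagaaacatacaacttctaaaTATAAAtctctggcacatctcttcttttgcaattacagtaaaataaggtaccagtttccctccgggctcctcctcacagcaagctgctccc
Tgfb2: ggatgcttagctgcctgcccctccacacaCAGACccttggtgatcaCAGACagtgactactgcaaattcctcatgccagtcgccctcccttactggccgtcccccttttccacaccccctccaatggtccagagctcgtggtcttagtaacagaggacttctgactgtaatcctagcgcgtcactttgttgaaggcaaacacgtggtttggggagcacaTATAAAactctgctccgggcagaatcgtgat
The Inhbb window held neither motif and 21 CpG dinucleotides. The Inhba window held 1 TATAAA starting 91 bases before the start site, no CAGAC and 3 CpG. The Tgfb2 window held 2 CAGAC, 8 CpG and 1 TATAAA starting 31 bases before the start site. Of 32851 promoter windows of this length, 42.2% held CAGAC and 12.4% held TATAAA, and the median window held 6 CpG. These matches describe the letters only. Of the 10 genes, 7 had a promoter in the table.

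Across the 8 subclones, Bmp2, Fst and Inhbb varied most and Bmp4, Tgfb1 (in its brighter probe set) and Tgfb3 least. A moderated F-test in limma across the 8 subclone means, adjusted by Benjamini-Hochberg over all genes, was passed by 7 of the 9 genes, against 61.8% of all genes tested, and 6 of the 9 passed it and spanned at least 1 log2 unit between subclone means, against 12.7% of all genes. Their median range was 1.52 log2 units, against 0.49 for all genes. In the 28 pairs of subclones, 71 of the 252 combinations of gene and pair (28.2%) reached an adjusted p under 0.05 with a difference of at least 1 log2 unit, against 2.41% of all combinations of gene and pair. The count was 42 with a pseudocount of 64, and 40 with the mean over all probe sets of a gene. The share of 2.41% belongs to the main fit, and the shares of all combinations under these 2 alternatives are not given. Of the 71 calls, Bmp2 gave 20, Fst 18, Inhbb 15, Inhba 8, Tgfb2 8 and Fstl3 2. With 1 array left out, Inhba gave 6 (without array 1 of subclone 18) to 10 (without array 3 of subclone 19), Tgfb2 7 to 12 (without array 3 of subclone 3), and Fstl3 2 to 4 (without array 3 of subclone 24). Because the genes were chosen with earlier results of these data known, the shares above those of all genes are not a test of the set.

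**Figure D1:**
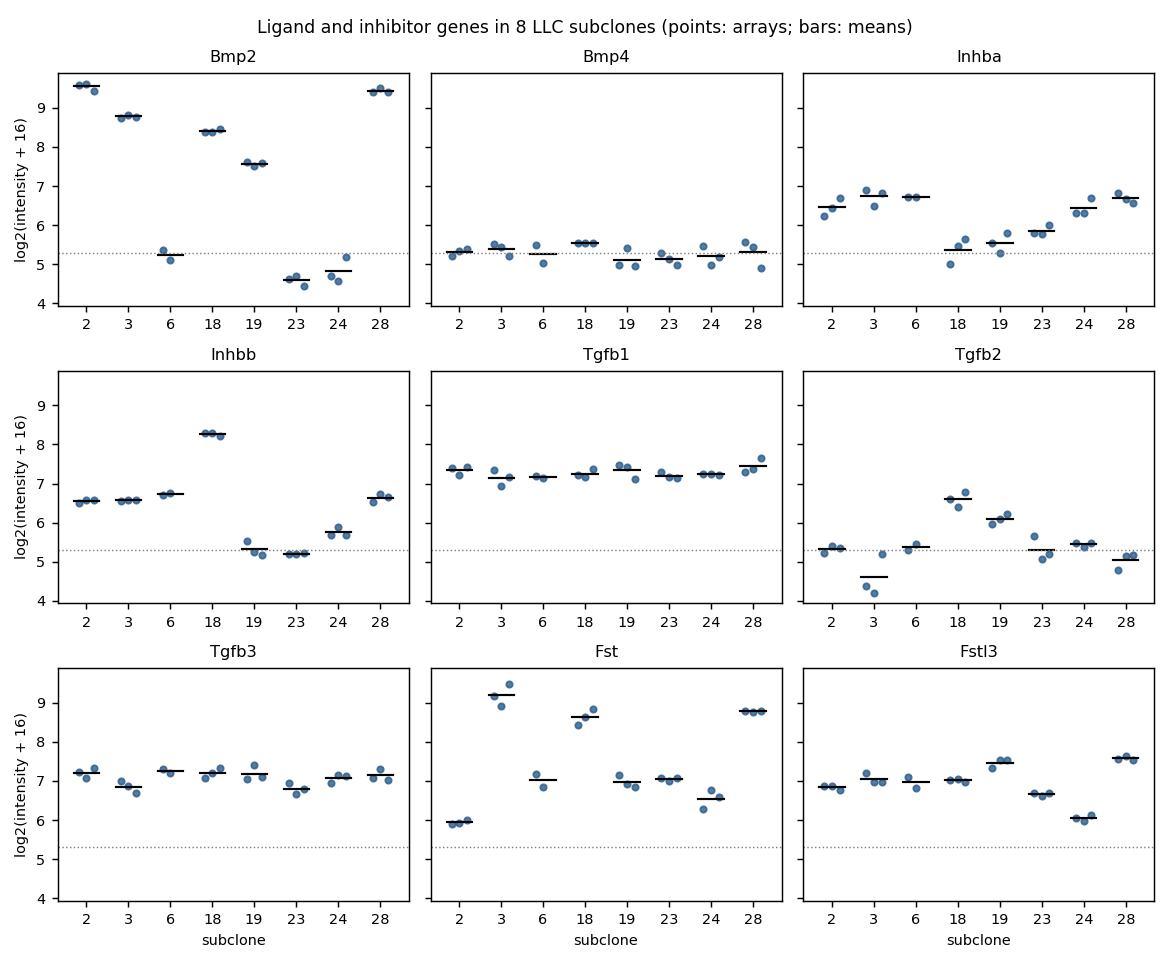
Level of each gene on each array, as log2(intensity + 16), against subclone; points are arrays, black bars are subclone means, and the dotted line is the level of 5.3 used as a filter in an alternative fit. Bmp2 spans the widest range (4.59 to 9.55), and Inhbb stands at 8.26 in subclone 18 against 6.72 or less in the other 7.

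Of the pairs with the most of these genes called, subclones 18 and 2 differed in 5 of the 9 (4.5% of all genes called), as did 19 and 3 (3.05%), 18 and 6 (3.73%), 24 and 18 (3.12%), and 28 and 19 (2.81%). None of the 9 was called between subclones 28 and 3 (1.29% of all genes called), 24 and 6 (1.09%) or 24 and 23 (1.76%).

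As background to the levels, Vim and Krt18, genes of mesenchymal filaments and of simple epithelium, were high in all subclones (13.67 or more and 10.82 or more). The adherens junction gene Cdh1 did not exceed a mean of 4.58. All 5 endothelial genes (Pecam1, Emcn, Kdr, Cdh5 and Tek) had subclone means of 5.42 or less, with summed intensities of 60.6 to 92 per array, and none passed the F-test. Of 6 leukocyte genes only Cd68, a lysosomal gene of macrophages that other cells also express, passed (8.94 in subclone 28 and 6.14 in subclone 18). The defining leukocyte genes Ptprc, Cd3e and Adgre1 stayed at means of 4.75 or less, Itgam reached 5.21, and Csf1r lay between 7.02 and 7.29. Of 5 fibroblast genes 3 passed (Pdgfra, Pdgfrb and Dcn). Col1a2 (means of 5.91 to 6.15, F-test adjusted p = 0.849) and Thy1 (F-test adjusted p = 0.0643) did not pass. The summed intensity of all 5 fibroblast genes per array ran from 848 in subclone 19 to 5210 in subclone 2. Of 5 lung epithelium genes 2 passed: Foxa2, a transcription factor gene of endodermal epithelia, was at 9.36 in subclone 3 and 7.33 in subclone 23, and Sftpc had means of 5.57 or less. Sftpb (6.48 to 6.68), Scgb1a1 (5.45 or less) and Nkx2-1 (4.43 or less) did not pass. Subclone 18 stood apart in Krt8 (5.70, against 10.32 or more elsewhere) and in Pdgfrb (8.19, against 5.46 or less elsewhere). Krt18 was also lowest there (10.82), and Cdh2 (9.28) was close to its highest mean (9.30 in subclone 23). Other genes of the same lists went the other way. Subclone 18 had the highest Epcam mean (7.99, with 7.05 lowest in subclone 19) and the lowest Pdgfra mean (8.07). Its Dcn mean (8.98) was above only that of subclone 19 (8.59). The part of such differences in the results that follow was not tested. Without subclone 18, the ranges of Inhbb, Tgfb2, Inhba and Bmp4 were smaller, as given with each gene, and those of the other 5 genes kept their values. Array medians lay between 40.83 and 45.74 intensity units, whereas 5th percentiles were lower in subclones 19, 23 and 24 (2.08 to 2.39) than elsewhere (2.45 to 2.76).

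Bmp2, a ligand of the BMP branch, was high in 5 subclones and near the bottom of the scale in the remaining 3. Its intensities were 757, 769 and 679 in subclone 2, and 663, 706 and 663 in subclone 28. In subclone 3 they were 415, 438 and 423, in subclone 18 they were 316, 318 and 339, and in subclone 19 they were 181, 167 and 175. Arrays of these 5 subclones did not overlap with those of the other 3. In subclone 6 the arrays read 24.9 and 18.5, in subclone 24 they read 9.85, 7.96 and 20.5, and in subclone 23 they read 8.58, 9.8 and 5.9. The range was 4.96 log2 units (31.2-fold, SE 0.11 log2 units; F-test adjusted p = 2.61e-17). Since its low end lay at the bottom of the scale, the range depended on the pseudocount, with 6.36 log2 units at a pseudocount of 1 and 3.47 at 64.

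In the order of Bmp2 levels, subclones 2 and 28 were neighbours whose arrays overlapped (difference 0.11 ± 0.11 SE log2 units, limma adjusted p = 0.514). Each later step down to subclone 6 passed: 0.65 for subclone 28 over subclone 3, 0.38 for 3 over 18, 0.84 for 18 over 19 and 2.34 for 19 over 6 (limma adjusted p = 0.01 or less for each). The largest of these steps, between subclones 19 and 6, separates the high from the low subclones. Among the low ones, subclone 6 exceeded subclone 24 by 0.41 (limma adjusted p = 0.0197), but their arrays overlapped, and without array 1 of subclone 6 or arrays 1 or 2 of subclone 24 the comparison moved to the other side of 0.05 (up to 0.21). Subclones 24 and 23 overlapped (limma adjusted p = 0.133; 0.0219 without array 2 of subclone 24). Of the 23 arrays, 7 lay under a log2 level of 5.3, all in subclones 6, 23 and 24, at the bottom of the measured scale.

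Bmp4, the closest relative of Bmp2, gave intensities between 14 and 31.3 on all 23 arrays, 11 of them under the level of 5.3. Its subclone means ran from 5.54 in subclone 18 to 5.11 in subclone 19, with overlapping arrays in all but 1 neighbouring step, and the F-test was not passed (adjusted p = 0.349). The range was 0.43 log2 units, or 0.27 without subclone 18. At this signal no difference was detectable with these arrays.

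The activin subunit genes followed different orders. Inhbb, whose product forms activin B, read 296, 297 and 280 in subclone 18, above every other array. Subclones 6 (87.6 and 91.4), 28 (76.2, 90.2 and 85), 3 (78.5, 79 and 79) and 2 (74.7, 78.9 and 79.7) formed a middle level, in which neighbours overlapped and no step passed (limma adjusted p = 0.542 or more). The low subclones were 24 (35.8, 43.1 and 35.1), 19 (30.3, 21.9 and 19.8) and 23 (20.9, 21 and 21). The steps of 1.54 ± 0.085 log2 units for subclone 18 over 6, 0.80 ± 0.076 for 2 over 24 and 0.44 ± 0.076 for 24 over 19 passed without overlap (limma adjusted p = 5.76e-11, 1.42e-07 and 0.00013). The range was 8.30-fold with all subclones and 2.85-fold without subclone 18. Its second, dimmer probe set did not pass the F-test (adjusted p = 0.402 over all named probe sets). That probe set read only 8.48 to 28.8 over all arrays, near the bottom of the scale. Its highest mean was in subclone 18 and its lowest in 24. The Pearson correlation of subclone means between the probe sets was 0.65 (8 subclones).

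Inhba, whose product forms activin A, split the subclones in another way. Intensities were 104, 73.7 and 96.6 in subclone 3, 89.5 and 89.8 in subclone 6, and 96.8, 85.3 and 78.8 in subclone 28. Subclone 2 gave 59.1, 70.4 and 87.8, and subclone 24 gave 62.8, 63 and 88.1. Neighbours among these 5 subclones overlapped and no step between them passed (limma adjusted p = 0.357 or more). The remaining subclones were lower: 23 with 39.9, 38.7 and 48.5, 19 with 30.7, 23.2 and 39.8, and 18 with 16.4, 27.9 and 34.4. Among these 3 subclones, neighbours overlapped and neither step passed (limma adjusted p = 0.17 for 23 over 19 and 0.491 for 19 over 18). Subclone 23 exceeded 18 by 0.49 ± 0.17 log2 units with no overlap (limma adjusted p = 0.0297). Without array 1 of subclone 18, the mean of subclone 18 (5.56) lay above that of subclone 19 (5.55). Subclone 24 exceeded subclone 23 by 0.57 ± 0.17 log2 units with no overlap (limma adjusted p = 0.013, or 0.0827 without array 3 of subclone 24). The range was 2.56-fold (F-test adjusted p = 1.02e-06), 2.28-fold without subclone 18, and under 1 log2 unit with a pseudocount of 64 (0.78) or as a mean with its dim second probe set (0.74), with the F-test still passed. Subclone 18 thus had the highest Inhbb level and was one of 3 subclones low in Inhba, of which 19 and 23 were also low in Inhbb.

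**Figure D2:**
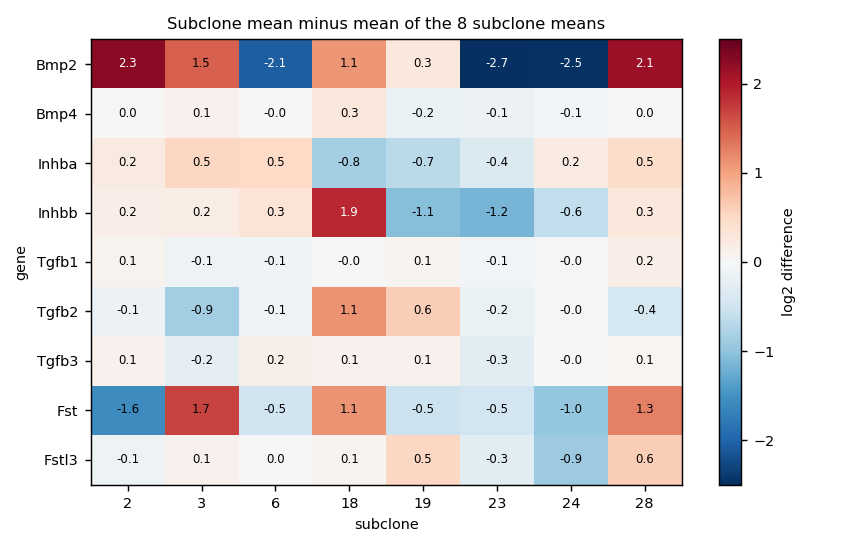
Subclone mean minus the mean of the 8 subclone means for each gene (log2 units; red is above, blue is below; rows are genes, columns are subclones). Inhba and Inhbb differ in sign in subclones 18 and 24, and Bmp2 lies far below its own mean in subclones 6, 23 and 24.

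Among the TGF-beta genes, Tgfb2 varied at low signal. Its intensities were 80.8, 68.9 and 93.3 in subclone 18 and 46.5, 52.2 and 58.3 in subclone 19. They were 34.3, 17.9 and 20.8 in subclone 23, between 21.5 and 28.9 in subclones 2, 6 and 24, between 11.8 and 20.1 in subclone 28, and 4.84, 2.54 and 20.8 in subclone 3. Subclones 18 and 19 lay above all other arrays. Subclone 19 exceeded the next, 24, by 0.64 ± 0.19 log2 units (limma adjusted p = 0.014, or 0.055 without array 3 of subclone 19). Subclone 18 exceeded 19 by 0.50 ± 0.19 (limma adjusted p = 0.0496), but this step missed 0.05 in 16 of the 23 removals of a single array (up to 0.167). With adjustment over all named probe sets, this step missed 0.05 in the chosen probe set as well (limma adjusted p = 0.0547). Nor did it pass in the probe sets ranked 2nd and 3rd in mean level (limma adjusted p = 0.098 and 0.346 over all named probe sets). The range was 3.98-fold (F-test adjusted p = 1.17e-06) and 2.81-fold without subclone 18. It was just under 1 log2 unit with a pseudocount of 64 (0.99), and 10 of the 23 arrays lay under 5.3. Its probe sets ranked 2nd and 3rd in mean level also had subclone 18 highest and subclone 3 lowest (ranges of 1.14 and 0.68 log2 units, adjusted p = 5e-08 and 0.00177 over all named probe sets), and the dimmest did not pass (adjusted p = 0.332). In the 2nd and 3rd, subclone 3 was not separated from 23 or 28 (limma adjusted p = 0.508 or more over all named probe sets). In the chosen probe set, subclone 28 over 3 did not pass (0.44, limma adjusted p = 0.0947, or 0.000807 without array 3 of subclone 3).

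The 2 probe sets of Tgfb1 gave different patterns. The brighter one, which represents the gene here, read between 107 and 185 on all arrays, with overlapping arrays in every neighbouring step (range 0.30 log2 units, F-test adjusted p = 0.237). The dimmer one read 48, 43.8 and 51.4 in subclone 18, 58.4, 48.1 and 54.2 in subclone 23, and 57.5, 56.2 and 68.7 in subclone 19. It read between 95.8 and 143 on the 14 arrays of the other 5 subclones. The 9 arrays of subclones 18, 19 and 23 therefore lay below all the others, with a range of 1.26 log2 units between subclones 3 and 18 (adjusted p = 1.39e-10 over all named probe sets) and 5 of 28 pairs called, against 2.03% of all combinations of probe set and pair. Between the probe sets, the Pearson correlation of subclone means was -0.08 (8 subclones). Which transcript each probe set reads is not given in the sources used here. By the dimmer probe set, Tgfb1 was low in the same 3 subclones as Inhba.

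**Figure D3:**
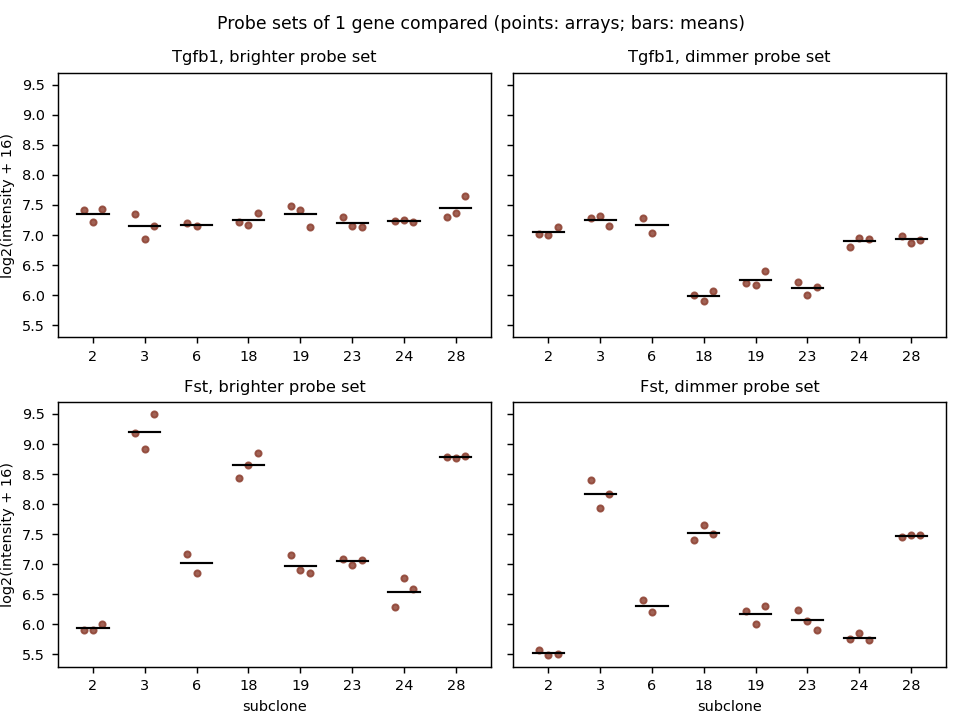
Level on each array, as log2(intensity + 16), against subclone for both probe sets of Tgfb1 (upper row) and of Fst (lower row); points are arrays and bars are subclone means. The Fst probe sets follow one another (r = 0.99), and the Tgfb1 probe sets do not (r = -0.08).

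Tgfb3 read between 85.5 and 153 on all arrays. It passed the F-test (adjusted p = 0.00716) with a range of only 0.44 log2 units, from 7.25 in subclone 6 to 6.80 in subclone 23, and no neighbouring step in its order passed (limma adjusted p = 0.131 or more).

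Among the inhibitors, Fst, which binds and neutralises activins, had 3 high subclones. It read 566, 468 and 704 in subclone 3, 427, 420 and 430 in subclone 28, and 331, 385 and 445 in subclone 18. In subclone 23 it read 119, 111 and 119, in subclone 6 it read 128 and 99.8, and in subclone 19 it read 126, 104 and 100.1. The step of 1.60 ± 0.14 log2 units for subclone 18 over 23 divided the high subclones from the rest with no overlap (limma adjusted p = 2.81e-08). Subclone 24 followed with 61.7, 92.6 and 80.6, and subclone 2 was lowest with 43.6, 44.3 and 48.6, which was 0.60 ± 0.14 log2 units below subclone 24 (limma adjusted p = 0.00188). No step passed among subclones 23, 6 and 19 (limma adjusted p = 0.871 or more) or between 28 and 18 (0.475). The steps for subclone 3 over 28 (0.41, limma adjusted p = 0.0255) and for 19 over 24 (0.43, limma adjusted p = 0.0212) missed 0.05 when some single arrays were left out (up to 0.162 and 0.136). The range was 9.57-fold (F-test adjusted p = 1.06e-12), and 6.25-fold in the dimmer probe set, with the same highest and lowest subclones. In the dimmer probe set, subclone 2 lay 0.25 log2 units below 24, which did not pass (limma adjusted p = 0.0877 over all named probe sets). Subclone 3 over 28 (0.69) and 19 over 24 (0.40) passed there (limma adjusted p = 4.92e-05 and 0.00754).

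Bmp2 and Fst did not share an order: subclone 2 had the highest Bmp2 and the lowest Fst level, and subclones 3, 28 and 18 were high in both. Over the 3 subclones high in Fst, Inhba was at its highest mean in subclone 3 (6.74), close to it in subclone 28 (6.68) and low in subclone 18 (5.38).

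Fstl3, a follistatin-like binding protein, varied less. It read 172, 185 and 168 in subclone 28 and 145, 169 and 170 in subclone 19, which overlapped (limma adjusted p = 0.308). Subclone 19 exceeded the next, 3, by 0.41 ± 0.079 log2 units with no overlap (limma adjusted p = 0.000257). Subclones 3, 18, 6, 2 and 23 lay between 81.9 and 131 without a neighbouring step that passed (limma adjusted p = 0.106 or more). Wider steps among them did pass. Subclone 23 minus subclones 3, 18 and 6 was -0.39, -0.35 and -0.30 log2 units (limma adjusted p = 0.000457, 0.00135 and 0.0109). Subclone 3 exceeded 2 by 0.22 (limma adjusted p = 0.0412). Subclone 24 was lowest with 50.8, 46.6 and 54.5, below every other array and 0.61 ± 0.079 log2 units below subclone 23 (limma adjusted p = 5.14e-06). The range was 2.87-fold (F-test adjusted p = 1.49e-10).

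Other genes of the pathway were described from lists whose counts stand beside the shares of all genes (61.8% past the F-test, and 12.7% that also spanned at least 1 log2 unit). Residual SDs of the list genes named below lay between 0.032 and 0.24 log2 units. Of 19 other ligands measured, 5 passed the F-test and 1 also had such a range (5.26%; median range 0.39). That gene was Lefty1, a Nodal antagonist, at 8.06 in subclone 28 and 6.64 in subclone 18 (adjusted p = 7.47e-12). Without subclone 18, none of these ligands had such a range.

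Of 19 receptors and co-receptors, 12 passed and 4 had such a range (21.1%; median range 0.54). Tgfbr2, the type II TGF-beta receptor, was highest in subclone 18 (11.42) and lowest in subclone 3 (10.36), whereas the type I receptors Tgfbr1 and Acvr1b were lowest in subclone 18 (9.18 and 9.09) and highest in subclones 2 (10.19) and 28 (10.11). Bambi, a decoy receptor, was highest in subclone 18 (6.06). The count was 0 of 19 without subclone 18, 2 without its array 1, and 1 with a pseudocount of 64. The BMP receptors Bmpr1a and Bmpr2 and the type I receptor Acvr1 varied by 0.35, 0.41 and 0.54 log2 units, and the activin receptor Acvr2a by 0.68 (highest adjusted p of these 4 = 7.98e-05). Acvr2b did not pass (range 0.27, adjusted p = 0.0669).

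Of 13 SMADs and their regulators, 11 passed and 2 had such a range (15.4%; median range 0.61). Smad3, which carries activin and TGF-beta signals, was lowest in subclone 3 (9.10) and highest in subclone 19 (10.21), and the inhibitory Smad7 was lowest in subclone 19 (7.50) and highest in subclone 28 (8.53). That count was 1 with a pseudocount of 64 and 0 with the mean over all probe sets.

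Of 13 other secreted inhibitors, 6 passed and 3 had such a range (23.1%; median range 0.46). The BMP antagonist Grem1 peaked in subclones 28 (11.08), 3 (11.06) and 2 (10.84), which also had the highest Bmp2 levels, and was lowest in subclone 19 (8.17). Over the 8 subclone means, the correlation of Bmp2 with Grem1 was 0.42 (Pearson), and subclone 6, low in Bmp2, had a Grem1 level of 10.51. Fstl1, a distant relative of follistatin, peaked in subclones 23 (11.83), 18 (11.60) and 28 (11.21), with its lowest level in 24 (9.32), and Bmper, a modulator of BMP, was highest in subclone 23 (5.97).

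Genes of TGF-beta storage and activation held 15 of 19 past the F-test and 7 with such a range (36.8%; median range 0.67; 4 genes with a pseudocount of 64). Dcn, a proteoglycan that binds TGF-beta, was at 12.20 in subclone 2 and 8.59 in subclone 19. The latent TGF-beta binding proteins Ltbp2 and Ltbp4 ranged over 2.32 and 1.02 log2 units, with Ltbp2 lowest in subclones 18 (6.42) and 24 (6.51). Thbs1, encoding thrombospondin 1, which can release active TGF-beta, the integrin subunit Itgb8 and the proprotein convertase Pcsk6 were highest in subclone 18 (7.75, 6.86 and 6.44), whereas the integrin subunit Itgb3 was lowest there (4.79) and highest in subclone 3 (6.89).

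**Figure D4:**
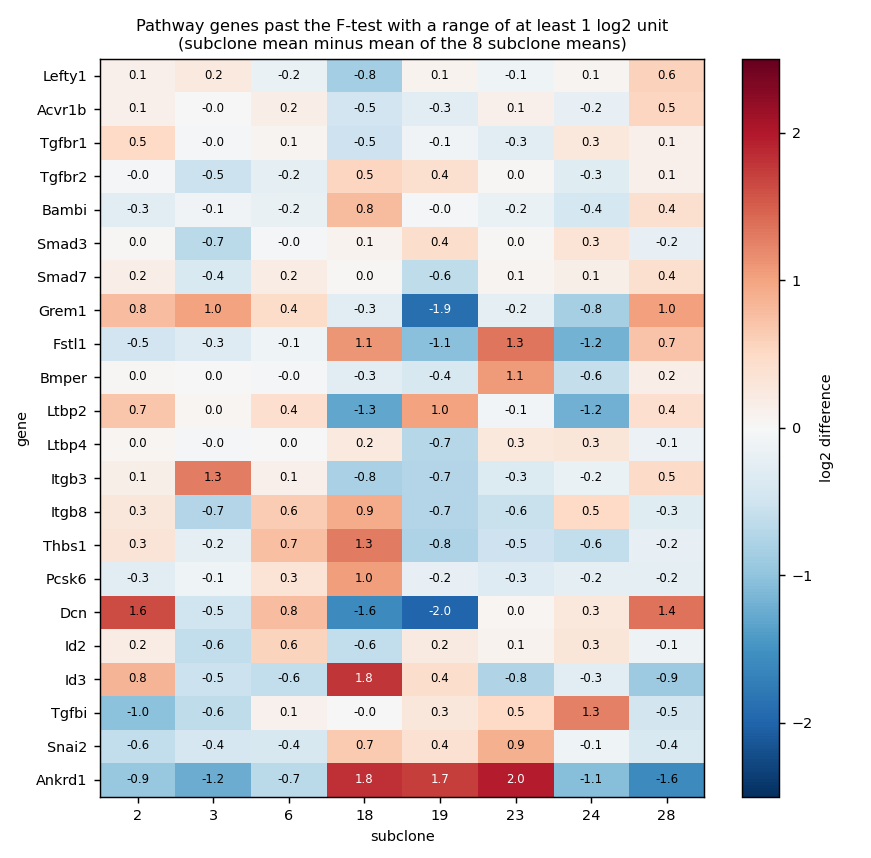
Subclone mean minus the mean of the 8 subclone means (log2 units; red is above, blue is below) for the listed ligands, receptors, SMADs, inhibitors, storage and target genes that passed the F-test and spanned at least 1 log2 unit; rows are genes and columns are subclones. Id3 and Thbs1 are highest in subclone 18, and Ankrd1 is high in subclones 18, 19 and 23.

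Of 13 BMP target genes, 6 passed and 2 had such a range (15.4%; median range 0.37; 1 gene with the mean over all probe sets). Id3 was highest in subclone 18 (10.49), followed by 2 (9.55) and 19 (9.14), while the other 5 had 8.45 or less, down to 7.79 in subclone 28 (adjusted p = 2.9e-13). Id1 ranged over 0.99 log2 units, from 10.27 in subclone 2 and 10.15 in subclone 18 to 9.28 in subclone 19, and Id2 was highest in subclone 6 (10.87) and lowest in 18 (9.69). Subclone 28, with the second highest Bmp2 mean, had Id1 and Id3 at 9.49 and 7.79. Over the 8 subclone means, Bmp2 correlated with Id1, Id2 and Id3 at 0.39, -0.56 and 0.38 (Pearson). Smad6 did not pass (adjusted p = 0.122).

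Of 17 TGF-beta and activin target genes, 11 passed and 6 had such a range (35.3%; median range 0.55). Ankrd1, which also responds to YAP, lay between 8.89 and 9.11 in subclones 18, 19 and 23, and did not exceed 6.47 elsewhere (adjusted p = 1.24e-15). These were the 3 subclones low in Inhba, and the Pearson correlation with Inhba was -0.94 over 8 means. Snai2, a transcription factor gene of mesenchymal cells, was likewise at 10.85 or more in subclones 18, 19 and 23 and at 10.37 or less elsewhere (r = -0.87 with Inhba). Tgfbi was highest in subclone 24 (8.94) and lowest in subclone 2 (6.65), which had the highest Bmp2 level (r = -0.84 with Bmp2). These correlations are a selection from those of each measured member with every listed gene. The ligand gene Tgfb2 ran against Inhba (r = -0.86). It was highest in subclones 18 and 19 (6.59 and 6.09), where Ankrd1 and Snai2 were high. In subclone 23, where Ankrd1 and Snai2 peaked (9.11 and 11.35), Tgfb2 was at 5.31, close to its mean in subclone 2 (5.32). A relation of ligand to target was not tested. Ltbp2, Thbs1 and Smad7 are also on this list, and Ccn2 did not pass (adjusted p = 0.205). Of 11 genes of the stress and p53 responses known to regulate Gdf15, 11 passed and 4 had such a range (36.4%; median range 0.73), namely Trib3 (highest in subclone 6, 8.48), Egr1 (28, 8.63), Atf3 (19, 8.10) and Asns (3, 11.51).

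The genes most like each varying member were ranked by Pearson correlation of the 8 subclone means among 2302 other genes that passed the F-test and spanned at least 1 log2 unit. Inhba was followed by Uhrf2 (0.99), Hebp1 (0.98) and Egr2 (0.97), and Inhbb by Zfp937 (0.95), Snhg14 (0.91) and Pamr1 (0.91). Tgfb2 was followed by Xylb (0.96), Gpr155 (0.95) and Sirt1 (0.94), and Fstl3 by Tram1l1 (0.95), Lacc1 (0.93) and Aifm2 (0.93). Fst had Coq3 (0.87), Klf5 (0.85) and Ngef (0.84), and Bmp2 had Lcn2 (0.85), Pfkfb3 (0.81) and Cbr3 (0.78). With 8 points and arrays shared by all genes, these are descriptions of order only.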

How the data were processed

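RNA of 8 LLC subclones was measured on 23 Affymetrix arrays (mouse probe annotation of 2016), labelled as biotinylated cRNA per the labels. The authors deposited 1 linear intensity per probe set and array (0.61 to 17068.52). How they summarised and scaled probes is not given in the sources used here. Detection calls were not used. The number of arrays limits the precision.

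Of 45101 probe sets, 64 controls, 932 with several symbols and 9160 not named in the annotation were left out. For 34741 of 34945 named probe sets, the current symbol came from RefSeq (GRCm38.p6) through the Entrez identifier. The pseudocount was 16, and low values were not filtered. limma 3.58.1 in R 4.3.3 (lmFit, eBayes, 15 residual degrees of freedom) gave the F-test and all 28 pairs, each adjusted by Benjamini-Hochberg over 18193 genes. The fit was tested on simulated data. Folds are on the log2(intensity + 16) scale and understate changes of dim genes. Levels of different genes come from different probe sets and are not compared.

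The genes and lists were chosen with earlier results of these data known. Beside the members, the text names list genes that passed the F-test and spanned at least 1 log2 unit (at most 8 per list), 15 preset receptors and targets where measured, and the 3 genes most like each varying member. Of the list genes, 12 had no named probe set and are not analysed here.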

Additional observations from a re-analysis of the deposited data

How the results depend on the processing

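Across the alternatives, F-test calls of the 9 genes changed only for Tgfb1, which passed as the mean of its probe sets (range 0.58 log2 units, adjusted p = 1.72e-07). With single arrays left out, 7 genes passed each time, 69 to 76 gene and pair combinations were called, 11042 to 11396 of all genes passed, and receptors with a range of at least 1 ran from 2 (without subclone 18 replicate 1) to 5. With the replicate number as a block, 71 combinations were called and 11152 genes passed, against 11242 without it, and the block changed no call of the 9 genes. Deviations correlated over 0.1 in 8 of 77 same-numbered pairs of arrays and in 10 of 154 pairs with different numbers (median correlations -0.007 and 0.001). Of 23 arrays, 5 correlated best with their own number, so no clear pairing by number was seen. A pseudocount of 64 gave 42 combinations called, 1 receptor, 1 SMAD gene and 4 storage genes, and a pseudocount of 1 gave 2 other ligands. The mean over all probe sets gave 40 combinations, 0 SMAD genes and 1 BMP target. Without subclone 18, an alternative added after seeing the data, 43 combinations were called, fewer pairs being tested, with 0 other ligands and 0 receptors. In the same way, a fit over all named probe sets gave 8 genes with at least 1 probe set past the F-test. The share of all genes by that count is not given, so it is not set against the share in the main fit. Genes with a range of at least 1 numbered 4 with a pseudocount of 64 and with the mean over probe sets, and 6 under every other setting run for this count. For combinations called and for ranges of at least 1, shares of all genes are given for the main fit only. For other moved counts the cause was not tested. Median centring and quantile scaling moved the median of all genes by at most 0.07 log2 units. Near the bottom of the scale, differences of Bmp4, Bmp2 in its low subclones and Tgfb2 are limited by signal over background.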
